A study of Saccharomyces cerevisiae with 6 samples.

Results

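Translation factors are the soluble proteins that load the ribosome onto mRNA, drive peptide elongation and release the finished chain. Initiation in yeast begins when eIF2 carries the initiator tRNA to the small ribosomal subunit and eIF4 proteins bring it to the mRNA cap. eIF2B then recharges eIF2 with GTP, elongation factors deliver aminoacyl-tRNA and move the ribosome, and release factors end the chain. Here 40 genes of this kind in Saccharomyces cerevisiae were chosen by symbol, with earlier results of these data known. They are factors of initiation, elongation and termination known from the textbook, and GCD10, of a tRNA methyltransferase, is counted with them. Of the 40, 37 had a probe set under their own name on the array, out of 5449 genes tested. TIF1, TEF1 and EFT1 had none. Each has a close paralog, TIF2, TEF2 and EFT2, and the probe sets named for these paralogs carry the suffix _s_at, which marks probes that can hybridise more than 1 gene. Values given for TIF2, TEF2 and EFT2 may therefore hold signal of both copies.

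RNA came from cells labelled BY4741, a haploid laboratory strain of mating type a with deletions in HIS3, LEU2, MET17 and URA3, grown in rich medium (YPD). The 3 groups, of 2 arrays each, were treated for 3 hours with CID 3528206, a small molecule named here by its code, at 20 µM, with rapamycin at 200 nM, or with 1% DMSO, the solvent control. The labels do not say if DMSO was in the treated cultures too. Rapamycin blocks the TOR kinase, through which nutrient supply sets growth and protein synthesis. The labels call the arrays duplicates and do not say if each came from its own culture. The p-values therefore cover the spread between such arrays alone, which may be technical. Values are log2 RMA values, the authors' normalized measure of a probe set's brightness, and they compare 1 gene between arrays, not 1 gene with another.

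Some arrays stood apart or went against their labels. On CID 3528206 replicate 1 the 3' control probe sets of 7 yeast genes exceeded their 5' ones by 1.69 log2 units on average, a measure of RNA integrity and labelling, against 0.91 to 1.14 in the other 5 arrays. Over the 37 factors, replicates differed with a standard deviation of 0.203 for CID 3528206, 0.0632 for rapamycin and 0.0728 for DMSO. In all 6 arrays the 4 genes deleted in BY4741 lay between 10.39 and 12.11 and the 5 alpha-cell genes between 8.59 and 13.47, while the 6 a-cell genes lay between 4.89 and 8.24. These values go against the strain label, so the strain is given only as labelled. The markers also moved with the treatments. Of the 6 a-cell genes 5 rose after CID 3528206 and 4 after rapamycin (median log2 difference 0.53 and 0.95). Of the 5 alpha-cell genes 5 fell after CID 3528206 and 3 after rapamycin (-0.84 and -0.62), and of the 4 genes deleted in BY4741 4 and 3 fell (-0.57 and -0.76). Their part in the results on translation factors was not tested. As a background level, 95% of the probe sets made for the fission yeast Schizosaccharomyces pombe lay below 4.27 to 4.38, depending on the array. All 37 factors lay above it, between 9.86 and 14.69.

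Most differences that passed the test were downward and small. After rapamycin 14 of 26 initiation factors fell (53.8%), among them subunits of eIF2, eIF2B and eIF3 and both eIF4G genes. Of 8 elongation factors 2 fell (25%), close to the 26.2% of all genes. After rapamycin, limma called 18 of 37 factors at an adjusted p under 0.05, which is 48.6%, against 52.7% of all genes tested. The direction was uneven: 16 factors fell and 2 rose, where 26.2% of all genes fell and 26.5% rose. The median log2 difference of the factors was -0.22, beside -0.02 over all genes, and the differences ran from -0.63 to 0.32. After CID 3528206, 15 of 37 were called (40.5%, against 50.5% of all genes), 12 lower and 3 higher, where 24.4% of all genes fell and 26.1% rose. The median was -0.08, beside -0.01 over all genes, and the range was -0.46 to 0.38. The median was -0.13 without CID 3528206 replicate 2 and -0.12 over the 34 factors with probe sets of 1 target. Without CID 3528206 replicate 1, without DMSO replicate 2, or with the 3' to 5' difference as a covariate, the median was -0.07. No factor changed 2-fold in either comparison. Both comparisons use the same 2 DMSO arrays. Their calls stand side by side as follows: 9 factors were lower after both treatments, 2 (GCD6 and CAM1) were higher after both, 7 were lower after rapamycin only and 4 were called after CID 3528206 only. These joint counts were not made over all genes, so whether they are unusual for the factors was not tested. Whether the treatments differ from each other was tested directly, with the results given after the roles. In 34 of 37 factors both rapamycin arrays lay on 1 side of both DMSO arrays, 29 below and 5 above DMSO, beside 84.9% of all genes (44.2% below and 40.7% above). For CID 3528206 and DMSO this held for 27 factors, 20 below and 7 above, beside 75.8% of all genes (38.6% below and 37.2% above).

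The rapamycin count fell when any of its 4 arrays was left out. Without DMSO replicate 1 or 2, or without rapamycin replicate 1 or 2, 8 factors were called, in each case all of them lower. The CID 3528206 count was 4 without DMSO replicate 1, 2 without DMSO replicate 2, and 9 without rapamycin replicate 1 or 2, which enter only through the shared spread. It was 12 without CID 3528206 replicate 1, the array with the wide 3' to 5' difference, and 23 without CID 3528206 replicate 2. Fitting and adjusting over all probe sets ended the rapamycin calls of CAM1, GCD1 and TIF3. It also ended the CID 3528206 calls of CDC33, EFB1, GCD10, GCD7, PRT1, TEF4 and TIF5, and those of GCD7, TEF4 and TIF4632 between the treatments. Called under every one of the 17 alternative settings were ANB1, CAF20, GCD7, SUI2, TEF4 and TIF35 after rapamycin, and SUI2 and SUI3 after CID 3528206.

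**Figure D1:**
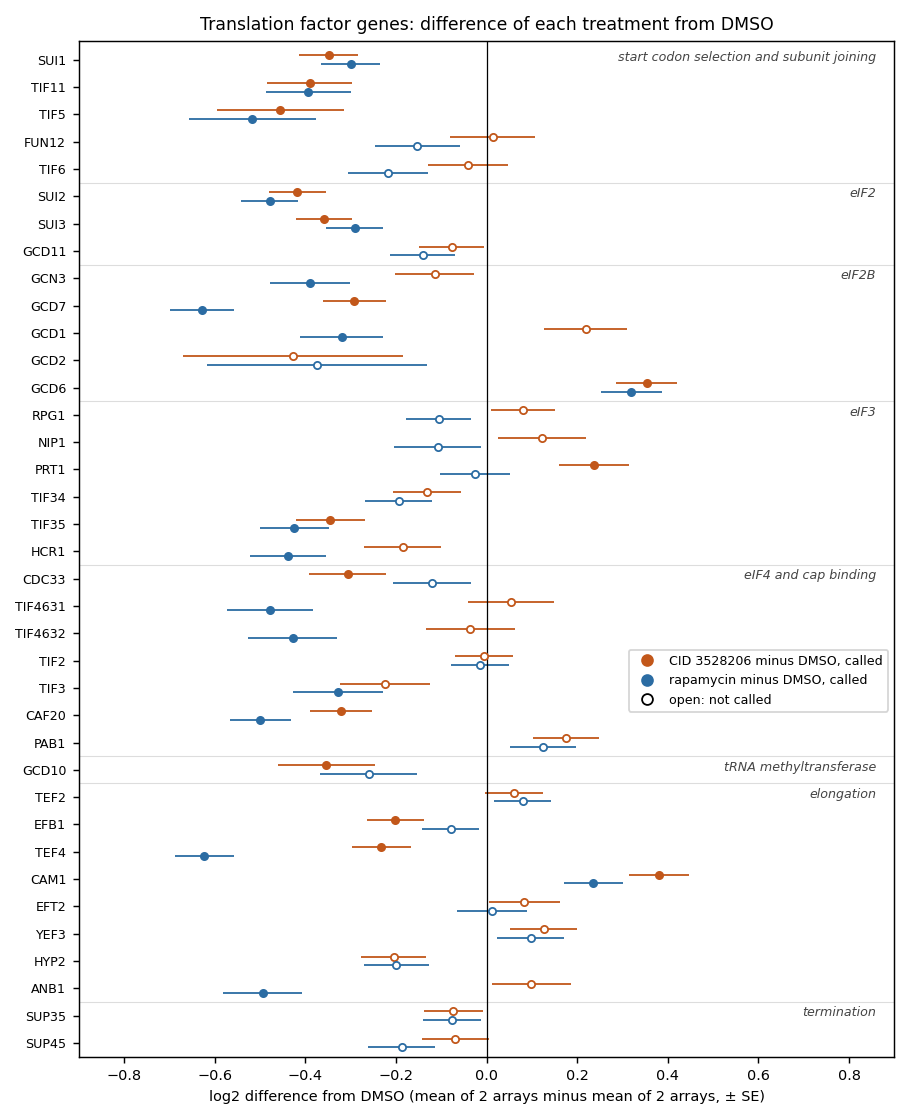
Log2 difference from DMSO (x axis, mean of 2 arrays minus mean of 2 arrays, with the limma standard error) for each of the 37 factors (y axis, grouped by role), for CID 3528206 (orange) and rapamycin (blue). Filled points were called at an adjusted p under 0.05 and open points were not. Most filled points lie left of 0, and the exceptions are GCD6 and CAM1 after both treatments and PRT1 after CID 3528206.

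The factors that select the start codon fell after both treatments. SUI1 encodes eIF1, which holds the scanning ribosome open, TIF11 encodes eIF1A, and TIF5 encodes eIF5, which triggers GTP hydrolysis by eIF2. TIF5 had 11.30 and 11.73 after CID 3528206, 11.46 and 11.45 after rapamycin, and 11.91 and 12.03 after DMSO. All 4 treated arrays lay below both DMSO arrays, and the CID 3528206 replicates lay on either side of the rapamycin pair. TIF5 fell by 0.46 after CID 3528206 and by 0.52 after rapamycin on the log2 scale, with a standard error of 0.14 (limma adjusted p = 0.0363 and 0.0227). SUI1 had 12.93 and 12.99 after CID 3528206, 13.02 and 13.00 after rapamycin and 13.31 in both DMSO arrays, and fell by 0.35 and by 0.30 with a standard error of 0.07. TIF11 fell by 0.39 after each treatment, with a standard error of 0.09. FUN12, which encodes eIF5B of subunit joining, and TIF6, which encodes eIF6 of the large subunit, were not called in either comparison over all 6 arrays. After rapamycin FUN12 was called lower under 4 of the 17 alternatives and TIF6 under 6. Of these 5 genes the share lower was 60% after each treatment, beside 24.4% of all genes after CID 3528206 and 26.2% after rapamycin. Without rapamycin replicate 2 the rapamycin calls of SUI1, TIF11 and TIF5 ended (limma adjusted p = 0.0828, 0.101 and 0.0948), as they did without DMSO replicate 1 or 2 and, for SUI1 and TIF5, without rapamycin replicate 1. Their CID 3528206 calls ended without either DMSO array (highest adjusted p = 0.0579, 0.095 and 0.165, all without DMSO replicate 2), and that of TIF5 also without either rapamycin array (0.0681).

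Of the 3 subunits of eIF2, alpha (SUI2) and beta (SUI3) fell after both treatments, and gamma (GCD11), which binds GTP and the tRNA, was not called. The share lower was 66.7% after each treatment, beside 24.4% of all genes after CID 3528206 and 26.2% after rapamycin. SUI2 had 11.83 and 11.87 after CID 3528206, 11.79 in both rapamycin arrays, and 12.27 and 12.26 after DMSO. The replicates lay close together and all 4 treated arrays lay below DMSO. SUI2 fell by 0.42 after CID 3528206 and by 0.48 after rapamycin, with a standard error of 0.06 (limma adjusted p = 0.00292 and 0.00154). SUI3 had 12.31 and 12.28 after CID 3528206, 12.36 in both rapamycin arrays, and 12.66 and 12.65 after DMSO. It fell by 0.36 and by 0.29, with a standard error of 0.06 (limma adjusted p = 0.00491 and 0.00987). The rapamycin call of SUI3 ended when any DMSO or rapamycin array was left out (adjusted p up to 0.0794, without DMSO replicate 1). GCD11 differed by -0.08 ± 0.07 after CID 3528206 and by -0.14 ± 0.07 after rapamycin (SE, n = 2 arrays a group, limma adjusted p = 0.401 and 0.146).

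The 5 subunits of eIF2B, the exchange factor that recharges eIF2, did not move together. The shares called were 40% after CID 3528206 and 80% after rapamycin, beside 50.5% and 52.7% of all genes. GCD6, the catalytic epsilon subunit, had 11.50 and 11.42 after CID 3528206, 11.45 and 11.40 after rapamycin, and 11.11 and 11.10 after DMSO. It rose by 0.35 ± 0.07 and 0.32 ± 0.07 log2 units (SE, limma adjusted p = 0.00684 and 0.00925), with all 4 treated arrays above DMSO. GCD7, the beta subunit, had 10.88 and 10.94 after CID 3528206, 10.54 and 10.61 after rapamycin, and 11.16 and 11.24 after DMSO. The 3 groups did not overlap, with rapamycin lowest and DMSO highest. GCD7 fell by 0.29 after CID 3528206 and by 0.63 after rapamycin, with a standard error of 0.07 (limma adjusted p = 0.0156 and 0.000797). The rapamycin fall was 1.55-fold, the largest among the 37 factors, though 19.8% of all genes tested had a larger difference in that comparison.

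GCD1, the gamma subunit, had 11.50 and 11.42 after CID 3528206, 10.842 and 10.996 after rapamycin, and 11.16 and 11.32 after DMSO. Rapamycin arrays were lowest and CID 3528206 arrays highest. GCD1 fell by 0.32 after rapamycin (SE 0.09, limma adjusted p = 0.0284) and differed by 0.22 ± 0.09 after CID 3528206 (limma adjusted p = 0.094). GCN3, the alpha subunit and the one through which phosphorylated eIF2 inhibits the complex, fell by 0.39 after rapamycin (SE 0.09) and differed by -0.11 ± 0.09 after CID 3528206. GCD2, the delta subunit, had 9.89 and 10.71 after CID 3528206, 10.32 and 10.38 after rapamycin, and 10.71 and 10.74 after DMSO. CID 3528206 replicate 1 stood 0.82 log2 units below its replicate, the widest replicate gap of any factor, and no comparison of GCD2 was called over all 6 arrays. Without that array GCD2 was higher after CID 3528206 than after rapamycin, by 0.35 (limma adjusted p = 0.0163), and without CID 3528206 replicate 2 its difference was -0.46 (adjusted p = 0.00378). Against DMSO, the CID 3528206 difference was -0.84 without CID 3528206 replicate 2, which leaves only the low array. GCD2 differed from DMSO after CID 3528206 by -0.43 over all arrays, and by -0.84 to -0.02 over the 17 alternatives. Its rapamycin difference of -0.37 was called with the 4 rapamycin and DMSO arrays alone (limma adjusted p = 0.00145), and leaving out either CID 3528206 array repeats that fit. A difference of -0.29 with the 3' to 5' covariate was called too (0.0132). GCD2 was singled out after its values were seen. The rapamycin calls of GCD1 and GCD6 ended when any DMSO or rapamycin array was left out, and that of GCN3 without DMSO replicate 2 or either rapamycin array (highest adjusted p = 0.178, 0.0809 and 0.0863). The CID 3528206 calls of GCD6 and GCD7 ended without either DMSO array (up to 0.0601 and 0.124, both without DMSO replicate 2).

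**Figure D2:**
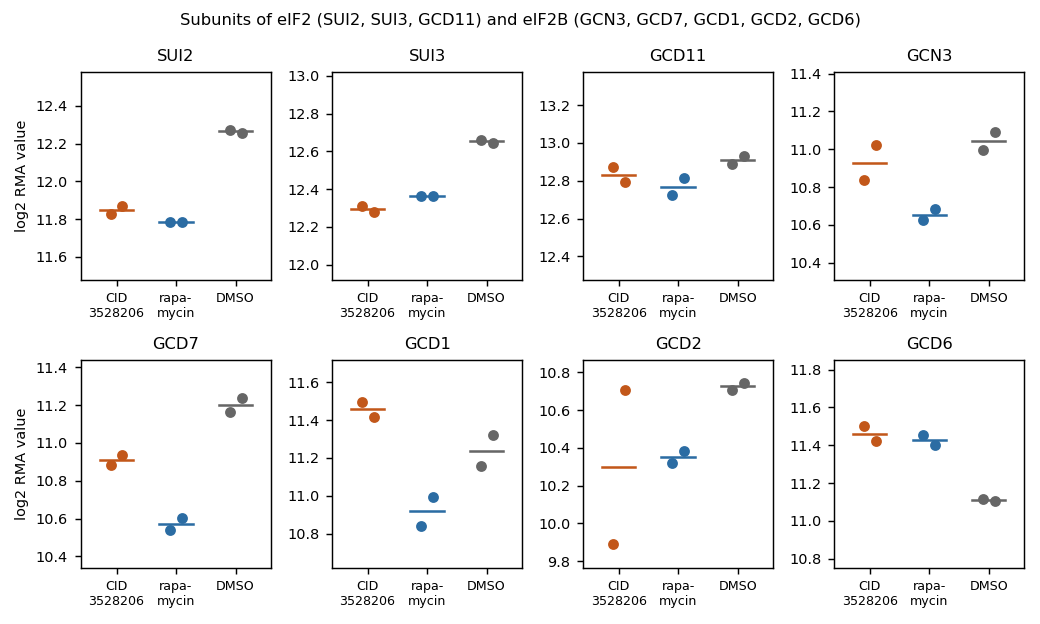
Log2 RMA values (y axis, each panel spanning 1.1 log2 units) of the 3 eIF2 and 5 eIF2B subunit genes on each of 2 arrays a group (points), with group means (lines), for CID 3528206, rapamycin and DMSO. SUI2 and SUI3 lie lower in all 4 treated arrays, GCD6 lies higher, and GCD2 has 1 low CID 3528206 array at 9.89.

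The 6 eIF3 genes encode the scaffold that binds the small subunit and the other initiation factors. They showed 2 falls after rapamycin and 1 fall and 1 rise after CID 3528206. The share called was 33.3% in both comparisons, beside 52.7% and 50.5% of all genes. TIF35, the subunit eIF3g, had 12.26 and 12.37 after CID 3528206, 12.21 and 12.26 after rapamycin, and 12.61 and 12.71 after DMSO. It fell by 0.34 and by 0.42, with a standard error of 0.08 (limma adjusted p = 0.0118 and 0.00495). HCR1, a loosely bound subunit, fell by 0.44 after rapamycin (SE 0.08, limma adjusted p = 0.00637) and differed by -0.19 ± 0.08 after CID 3528206. PRT1, which encodes eIF3b, had 12.47 and 12.32 after CID 3528206, 12.14 and 12.13 after rapamycin, and 12.13 and 12.19 after DMSO. It rose by 0.24 ± 0.08 after CID 3528206 (SE, limma adjusted p = 0.0434), and the rapamycin and DMSO arrays overlapped. The PRT1 call ended without CID 3528206 replicate 1 (adjusted p = 0.0791) and without any DMSO or rapamycin array (up to 0.213, without DMSO replicate 1). It also ended when each array was centred on its median (0.0525) and with the 3' to 5' difference as a covariate (0.0612). The TIF35 call for CID 3528206 ended without DMSO replicate 2 (0.0972), and the HCR1 call without DMSO replicate 2 (0.053) or rapamycin replicate 1 (0.0565). The large subunits RPG1 and NIP1 and the small TIF34 were not called over all 6 arrays, with differences from DMSO between -0.19 and 0.12. After rapamycin TIF34 was called lower under 5 of the 17 alternatives, among them a trended robust prior (limma adjusted p = 0.0347), and NIP1 under 1.

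Of the 7 measured genes for the cap-binding group, 2 fell after CID 3528206 and 4 after rapamycin. No rise was called, so the shares called were 28.6% and 57.1%. Of all genes 50.5% and 52.7% were called, 24.4% and 26.2% lower. TIF4631 and TIF4632 encode the paralogous eIF4G scaffolds that join the cap-binding protein to the helicase eIF4A and to the poly(A)-binding protein. TIF4631 had 11.69 and 11.47 after CID 3528206, 11.05 and 11.04 after rapamycin, and 11.59 and 11.46 after DMSO. TIF4632 had 10.51 and 10.29 after CID 3528206, 10.03 and 9.98 after rapamycin, and 10.50 and 10.37 after DMSO. For both paralogs the rapamycin arrays lay below all others, and the CID 3528206 and DMSO arrays overlapped. After rapamycin TIF4631 fell by 0.48 and TIF4632 by 0.43, with a standard error of 0.10 (limma adjusted p = 0.0074 and 0.0126). After CID 3528206 they differed from DMSO by 0.05 ± 0.10 and -0.04 ± 0.10, with 95% confidence intervals of -0.18 to 0.29 and -0.28 to 0.20. The rapamycin call of TIF4631 ended without DMSO replicate 1 (0.0584), and that of TIF4632 without DMSO replicate 1 or either rapamycin array (up to 0.0867).

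CAF20, which encodes a protein that competes with eIF4G for the cap-binding protein, had 12.55 and 12.56 after CID 3528206, 12.43 and 12.33 after rapamycin, and 12.87 and 12.89 after DMSO. It fell by 0.32 and by 0.50, with a standard error of 0.07 (limma adjusted p = 0.00987 and 0.0017), and all 4 treated arrays lay below DMSO. CDC33, which encodes the cap-binding protein eIF4E itself, fell by 0.31 after CID 3528206 (SE 0.09, limma adjusted p = 0.0263) and differed by -0.12 ± 0.09 after rapamycin. TIF3, which encodes eIF4B, fell by 0.33 after rapamycin (SE 0.10, limma adjusted p = 0.0327). Not called over all 6 arrays were PAB1, the poly(A)-binding protein gene, and the eIF4A gene TIF2, whose 6 arrays lay between 14.01 and 14.07. PAB1 was called higher after CID 3528206 under 2 of the 17 alternatives. The CID 3528206 calls of CAF20 and CDC33 ended without either DMSO array (up to 0.0799 and 0.167, both without DMSO replicate 2), that of CDC33 also without either rapamycin array. The rapamycin call of TIF3 ended when any DMSO or rapamycin array was left out (up to 0.159, without DMSO replicate 2).

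Of 8 measured elongation factors, 37.5% were called after CID 3528206 and 37.5% after rapamycin, beside 50.5% and 52.7% of all genes. Among them, the paralogs TEF4 and CAM1 moved in opposite directions. Both encode the gamma subunit of eEF1B, the complex that recharges the tRNA carrier eEF1A. TEF4 had 13.31 and 13.37 after CID 3528206, 12.94 and 12.96 after rapamycin, and 13.57 in both DMSO arrays. It fell by 0.23 and by 0.62, with a standard error of 0.06 (limma adjusted p = 0.0264 and 0.000615), and the 3 groups did not overlap. CAM1 had 12.47 and 12.50 after CID 3528206, 12.35 and 12.33 after rapamycin, and 12.14 and 12.07 after DMSO. It rose by 0.38 ± 0.07 and 0.24 ± 0.07 (SE, limma adjusted p = 0.00462 and 0.0248), and its groups did not overlap either. The TEF4 fall after rapamycin was 1.54-fold and the CAM1 rise 1.18-fold. The rapamycin call of CAM1 ended when any DMSO or rapamycin array was left out (up to 0.174, without DMSO replicate 2) and that for CID 3528206 without DMSO replicate 2 (0.0528), while the CID 3528206 call of TEF4 ended when any DMSO or rapamycin array was left out (up to 0.142).

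HYP2 and ANB1 encode the paralogous forms of eIF5A, which helps the ribosome through difficult peptide bonds. HYP2 is the form made in aerobic cells and ANB1 is known to be induced when oxygen is low. ANB1 had 10.83 and 10.66 after CID 3528206, 10.12 and 10.19 after rapamycin, and 10.60 and 10.70 after DMSO. It fell by 0.49 after rapamycin (SE 0.09, limma adjusted p = 0.00463), while its CID 3528206 and DMSO arrays overlapped, with a difference of 0.10 ± 0.09 (limma adjusted p = 0.377). HYP2 had 13.50 and 13.58 after CID 3528206, 13.59 and 13.50 after rapamycin, and 13.77 and 13.73 after DMSO. All 4 treated arrays of HYP2 lay below DMSO, with differences of -0.20 ± 0.07 after each treatment that were not called over all 6 arrays (limma adjusted p = 0.0555 and 0.0584). Of the 17 alternatives, 3 called HYP2 lower after CID 3528206 and 6 after rapamycin (lowest limma adjusted p = 0.0105 and 0.0108, both with a trended robust prior). For rapamycin, the fits without CID 3528206 replicate 1 or 2 repeat that of the 4 rapamycin and DMSO arrays alone.

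**Figure D3:**
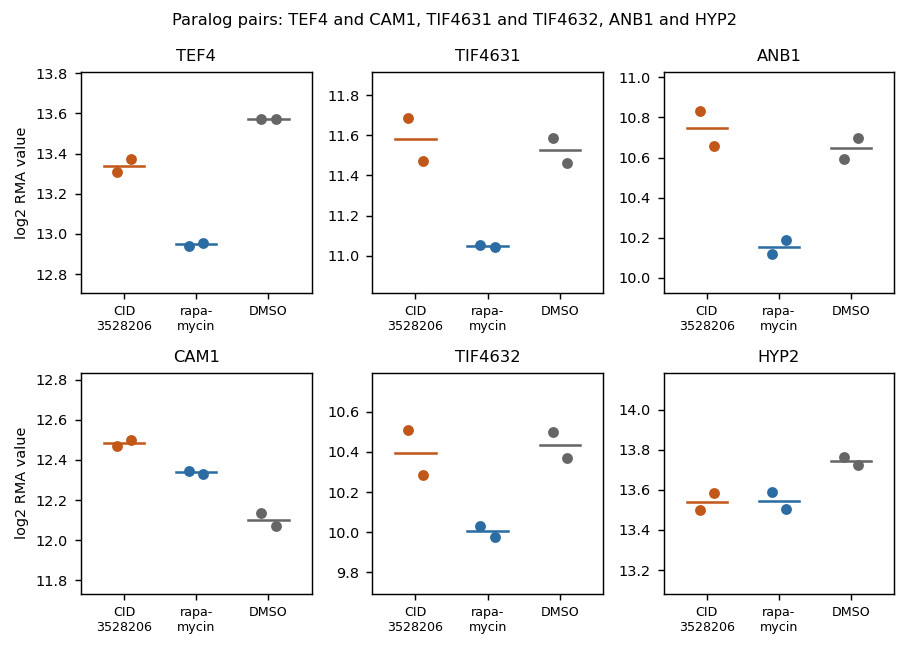
Log2 RMA values (y axis, each panel spanning 1.1 log2 units) on each of 2 arrays a group (points), with group means (lines), for 3 paralog pairs, 1 pair a column. TEF4 is lowest after rapamycin while CAM1 is lowest after DMSO, both eIF4G genes and ANB1 are lowest after rapamycin, and HYP2 lies at 13.50 to 13.59 in the 4 treated arrays.

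Of the other 4 elongation genes, only EFB1 was called over all 6 arrays, and only for CID 3528206 against DMSO. TEF2, for eEF1A, had 14.64 and 14.67 after CID 3528206, 14.69 and 14.66 after rapamycin, and 14.60 and 14.59 after DMSO, and was not called. A trended robust prior called TEF2 higher after rapamycin (limma adjusted p = 0.0389). EFT2, for the translocation factor eEF2, had 14.29 and 14.14 after CID 3528206, 14.16 and 14.13 after rapamycin, and 14.16 and 14.10 after DMSO, and its groups overlapped. YEF3, for the fungal factor eEF3, differed from DMSO by 0.13 ± 0.07 after CID 3528206 and 0.10 ± 0.07 after rapamycin (limma adjusted p = 0.202 and 0.31). EFB1, the exchange subunit of eEF1B, fell by 0.20 after CID 3528206 (SE 0.06, limma adjusted p = 0.0393). That call ended without CID 3528206 replicate 1 (0.0506), without any DMSO or rapamycin array (up to 0.2) and after quantile normalization (0.0605). These 4 genes and TIF2 have means above 14 over all 6 arrays, where the highest value of any probe set was 14.87, and none of their differences in any comparison exceeded the range -0.20 to 0.13. Whether the array's upper range limits such differences was not tested.

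The release factor genes SUP45 (eRF1) and SUP35 (eRF3) were not called in any of the 3 comparisons over all 6 arrays. SUP35 had 12.21 and 12.27 after CID 3528206, 12.23 in both rapamycin arrays, and 12.30 and 12.32 after DMSO. Its difference from DMSO was -0.07 ± 0.06 after CID 3528206 and -0.08 ± 0.06 after rapamycin, with 95% confidence intervals of -0.23 to 0.08 for both. SUP45 differed by -0.07 ± 0.07 and -0.19 ± 0.07, the second at an unadjusted p under 0.05. SUP45 was called lower after rapamycin under 5 of the 17 alternatives, among them a trended robust prior (limma adjusted p = 0.0337). Of these, the fits without CID 3528206 replicate 1 or 2 repeat that of the 4 rapamycin and DMSO arrays alone. GCD10 is named for its effect on GCN4 translation but encodes a subunit of a tRNA methyltransferase that modifies the initiator tRNA. It fell by 0.35 after CID 3528206 (SE 0.11, limma adjusted p = 0.0346) and differed by -0.26 ± 0.11 after rapamycin. The GCD10 call ended without CID 3528206 replicate 1 (0.0728) and without any DMSO or rapamycin array (up to 0.194).

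The direct comparison of CID 3528206 with rapamycin asks where the treatments themselves differ, at 20 µM and 200 nM. Limma called 6 of 37 factors, all higher after CID 3528206: ANB1, GCD1, TIF4631, TIF4632, TEF4 and GCD7. This is 16.2% of the factors, beside 18.8% of all genes, of which 9.32% were higher and 9.43% lower. No factor was called lower by limma. At an unadjusted limma p under 0.05, 11 factors were higher and none lower, beside 1026 higher and 1023 lower of all 5449 genes. Limma with a trended robust prior called 1 factor lower (EFB1, adjusted p = 0.0316). The arrays of the treatments did not overlap in 21 factors, 17 above and 4 below rapamycin, beside 63.5% of all genes (32.2% above and 31.3% below). The median difference was 0.07, beside -0.003 over all genes, and it was 0.13 without CID 3528206 replicate 1 and with the 3' to 5' covariate.

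ANB1 differed most, by 0.59 ± 0.09 (1.51-fold, limma adjusted p = 0.0105), and 5.89% of all genes had a larger difference. GCD1 was higher by 0.54 ± 0.09 (limma adjusted p = 0.0157) and TIF4631 by 0.53 ± 0.10 (0.0175). TIF4632, TEF4 and GCD7 were higher by 0.39 ± 0.10, 0.39 ± 0.06 and 0.34 ± 0.07 (limma adjusted p = 0.0423, 0.015 and 0.026). For all 6 both CID 3528206 arrays lay above both rapamycin arrays. For TEF4 and GCD7 the CID 3528206 arrays lay between rapamycin and DMSO, for ANB1, TIF4631 and TIF4632 they overlapped DMSO, and for GCD1 they lay above it.

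Factors called in the same direction against DMSO after both treatments, and not called here, gave intervals of differing width. The CID 3528206 minus rapamycin difference was 0.06 for SUI2, with a 95% confidence interval of -0.09 to 0.21, and -0.07 for SUI3 (-0.22 to 0.08). It was 0.06 for TIF5 (-0.28 to 0.40) and 0.003 for TIF11 (-0.23 to 0.23). For the factors that rose it was 0.03 for GCD6 (-0.13 to 0.20) and 0.14 for CAM1 (-0.01 to 0.30). All 6 eIF3 genes had a positive difference, from 0.06 to 0.26, and none was called over all 6 arrays. At an unadjusted limma p under 0.05, 3 of them were higher, as were 1026 of all 5449 genes. PRT1 was called higher under 5 of the 17 alternatives and HCR1 under 3. A trended robust prior called PRT1 (limma adjusted p = 0.0344), and the replicate number as a block called HCR1 (0.0411). Without CID 3528206 replicate 2 the differences of RPG1 and NIP1 were 0.24 and 0.35. They then rest on CID 3528206 replicate 1 alone, the array with the wide 3' to 5' difference.

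Without rapamycin replicate 1 or 2 none of the 6 calls stood, and the median difference of the 37 factors was 0.08 in both cases. Without DMSO replicate 1 or 2, which enter only through the shared spread, 3 stood. Without CID 3528206 replicate 1 the count was 9, all higher, and TIF4632 missed the threshold (0.0526). Without CID 3528206 replicate 2 it was 12, 10 higher and 2 lower (CDC33 and GCD2).

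**Figure D4:**
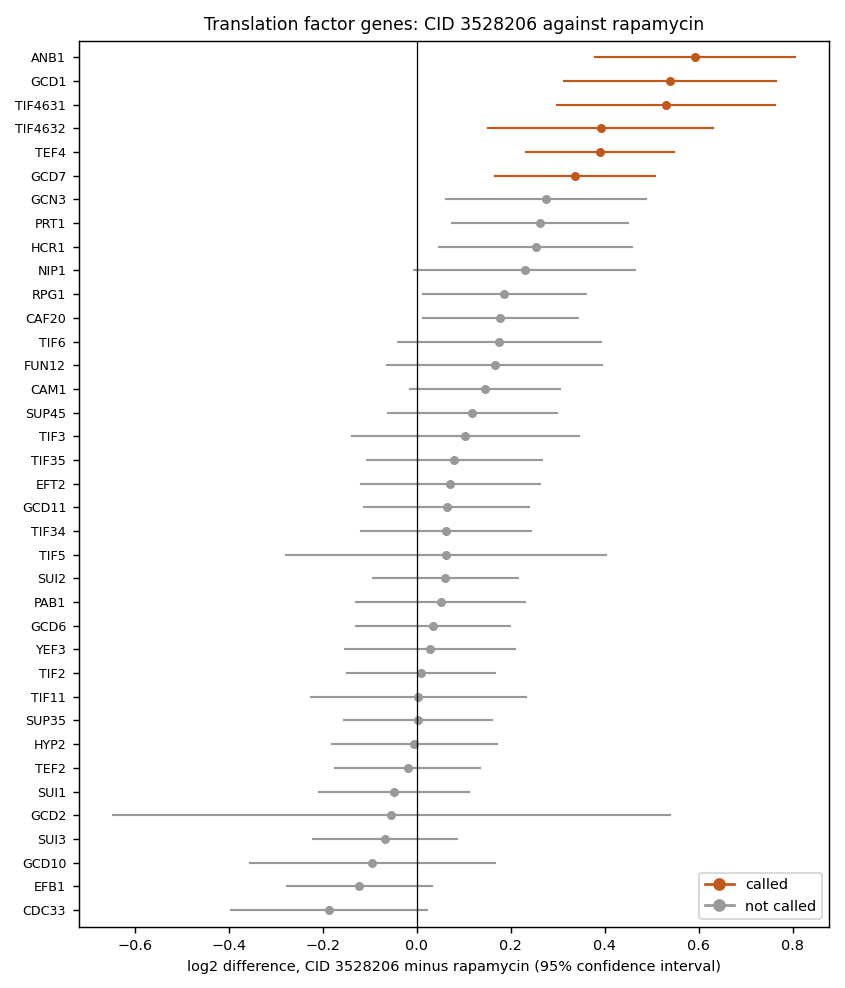
Log2 difference between CID 3528206 and rapamycin (x axis, CID 3528206 minus rapamycin, with the 95% confidence interval from limma, 2 arrays a group) for each of the 37 factors (y axis, sorted by size). The 6 called factors (orange) lie at 0.34 to 0.59, and GCD2 has the widest interval.

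Genes that work with these factors were described from 4 further lists. Among 19 other factors of initiation, elongation and recycling, 4 rose and 5 fell after CID 3528206, and 2 rose and 6 fell after rapamycin. The shares called were 47.4% and 42.1%, beside 50.5% and 52.7% of all genes. HEF3, the paralog of YEF3 and a gene that is little used in rich medium, had 9.47 and 9.73 after CID 3528206, 10.02 and 9.98 after rapamycin, and 7.996 and 8.045 after DMSO. It rose 2.98-fold and 3.94-fold (log2 1.58 ± 0.10 and 1.98 ± 0.10, limma adjusted p = 0.000137 and 4.71e-05), and no alternative setting ended either call. Its values after CID 3528206 were lower than after rapamycin by -0.40 ± 0.10 (adjusted p = 0.0401, a call that ended without any DMSO or rapamycin array, up to 0.197). After rapamycin DBP1, a helicase related to DED1, rose by 0.63 ± 0.12, and TMA20, of 40S recycling, fell by 0.61 (SE 0.07). RLI1, the ribosome-recycling ATPase, fell by 0.51 (SE 0.12), a call that ended without DMSO replicate 1 or 2 or rapamycin replicate 1 (up to 0.0923). After CID 3528206 NEW1, an ATPase related to eEF3, rose by 0.48 ± 0.12 (call lost without either DMSO array). GCD14, the partner of GCD10, fell by 0.37 (SE 0.12, limma adjusted p = 0.0489). That call was lost when any array but CID 3528206 replicate 2 was left out. DOM34, which rescues stalled ribosomes, fell by 0.43 after CID 3528206 and by 0.39 after rapamycin (SE 0.07, limma adjusted p = 0.00385 and 0.00524). TMA20 fell after CID 3528206 as well, by 0.36 (limma adjusted p = 0.00673), a call lost without DMSO replicate 2. Between the treatments PAN2, of a poly(A) nuclease, was higher after CID 3528206 by 0.46 ± 0.08 and YGR054W, which encodes eIF2A, by 0.39 ± 0.06, and both calls ended when any DMSO or rapamycin array was left out (up to 0.127 and 0.135).

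Enzymes that modify the factors included several of the larger differences. Of 16 measured, 4 rose and 2 fell after CID 3528206, and 2 rose and 7 fell after rapamycin, shares of 37.5% and 56.2% beside 50.5% and 52.7% of all genes. JJJ3, which acts in making diphthamide, a modified residue of eEF2, had 9.26 and 9.44 after CID 3528206, 9.50 and 9.54 after rapamycin, and 8.23 and 8.51 after DMSO. It rose 1.98-fold and 2.22-fold (limma adjusted p = 0.00117 and 0.000523). EFM3, a methyltransferase that acts on eEF2, rose by 0.69 ± 0.11 and 0.63 ± 0.11. EFM6, which methylates eEF1A, had 10.09 and 10.05 after CID 3528206, 9.06 and 9.12 after rapamycin, and 9.61 and 9.89 after DMSO. EFM6 fell by 0.66 after rapamycin (SE 0.10, limma adjusted p = 0.00287) and was 1.96-fold higher after CID 3528206 than after rapamycin (log2 0.97 ± 0.10, adjusted p = 0.00469). The difference between the treatments missed the threshold without rapamycin replicate 1 (0.0506). Its rise after CID 3528206, 0.31 ± 0.10 (adjusted p = 0.0436), was lost without DMSO replicate 1 (0.234), CID 3528206 replicate 1 (0.0744) or either rapamycin array (0.0834), after quantile normalization (0.0506) and with the 3' to 5' covariate (0.0512).

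DYS1 and LIA1 encode the enzymes that turn a lysine of eIF5A into hypusine, the modification that eIF5A needs to work. DYS1 had 13.02 and 13.05 after CID 3528206, 12.63 and 12.65 after rapamycin, and 13.16 and 13.18 after DMSO. It fell by 0.53 after rapamycin (SE 0.06, limma adjusted p = 0.00107), differed by -0.13 ± 0.06 after CID 3528206, and was higher after CID 3528206 than after rapamycin by 0.40 ± 0.06 (adjusted p = 0.0135, up to 0.118 without rapamycin replicate 1 and also lost without any other DMSO or rapamycin array). LIA1 had 11.44 and 11.54 after CID 3528206, 11.56 and 11.55 after rapamycin, and 11.96 and 12.15 after DMSO, and fell by 0.57 and by 0.50 with a standard error of 0.09. All 4 treated arrays of LIA1 lay below both DMSO arrays. DPH1, of diphthamide synthesis, fell by 0.27 after CID 3528206 and by 0.36 after rapamycin (SE 0.07, limma adjusted p = 0.0176 and 0.0063). Its CID 3528206 call was lost without either DMSO array, and its rapamycin call without DMSO replicate 2 or rapamycin replicate 2.

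Of 8 genes of the eIF2 kinase pathway, which lowers eIF2 activity when amino acids are short, 3 rose and 1 fell after CID 3528206, and 2 rose and 2 fell after rapamycin. This was 50% in both comparisons, close to the 50.5% and 52.7% of all genes. GCN4, the transcription factor whose translation the pathway controls, had 13.95 in both CID 3528206 arrays, 14.22 and 14.21 after rapamycin, and 13.73 and 13.75 after DMSO. Its mRNA rose by 0.21 ± 0.06 and 0.47 ± 0.06 (limma adjusted p = 0.0329 and 0.00148) and was lower after CID 3528206 than after rapamycin by -0.27 ± 0.06 (0.0349). The call between the treatments and that for CID 3528206 ended when any DMSO or rapamycin array was left out (up to 0.219 and 0.175). GCN2, the kinase, had 10.50 and 10.04 after CID 3528206, 10.03 and 9.93 after rapamycin, and 9.62 and 9.61 after DMSO, with the CID 3528206 replicates far apart. GCN2 rose by 0.65 ± 0.15 after CID 3528206, a call lost without either DMSO array (up to 0.0659). YIH1, an inhibitor of GCN2 activation, rose by 0.37 ± 0.11 and 0.43 ± 0.11, and GIR2, which binds GCN1, fell by 0.46 and by 0.33 (SE 0.10). GCN1, which activates GCN2, was higher after CID 3528206 than after rapamycin by 0.50 ± 0.13 (adjusted p = 0.0457), and RBG2, the partner of GIR2, fell by 0.30 after rapamycin (SE 0.07). Leaving out 1 array raised the adjusted p of these calls to 0.144 and 0.114 for YIH1, 0.0779 and 0.177 for GIR2, 0.236 for GCN1 and 0.0902 for RBG2. The arrays were DMSO replicate 1 and rapamycin replicate 2 for YIH1, DMSO replicate 2 for GIR2, rapamycin replicate 2 for GCN1 and DMSO replicate 1 for RBG2.

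Of 8 factors of mitochondrial translation, 4 fell after CID 3528206 and 3 after rapamycin, and limma called no rise, nor was any higher at an unadjusted p under 0.05. The shares called, all of them lower, were 50% and 37.5%, beside 50.5% and 52.7% of all genes called in either direction. Of all genes 24.4% and 26.2% were lower. AIM23, a mitochondrial initiation factor, fell by 0.77 and by 0.55 (SE 0.13), and RRF1, of ribosome recycling, fell by 0.40 and by 0.51 (SE 0.06). The rapamycin call of AIM23 ended when any DMSO or rapamycin array was left out (up to 0.071, without DMSO replicate 2).

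**Figure D5:**
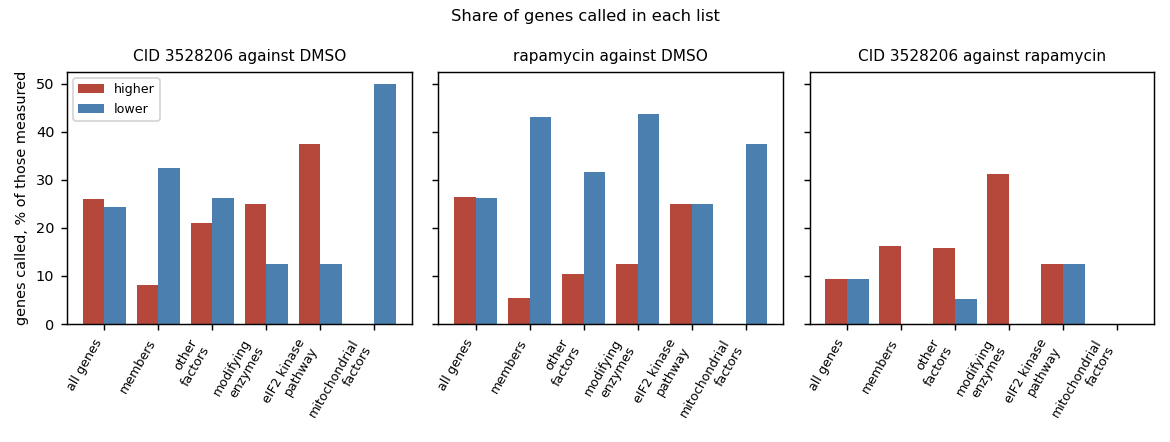
Share of measured genes called higher (red) and lower (blue) at an adjusted p under 0.05 (y axis, percent) among all 5449 genes, the 37 factors and the 4 lists of related genes, for CID 3528206 against DMSO, rapamycin against DMSO, and CID 3528206 against rapamycin. After rapamycin 43.2% of the factors were lower and 5.41% higher, and between the treatments 16.2% were higher.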

How the data were processed

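RNA of 6 samples was measured on Affymetrix yeast arrays after a 3' in vitro transcription labelling of 100 ng of total RNA, per the labels' protocols. The authors deposited log2 values for each probe set, computed with RMA, per the submitters' processing notes. Software versions and settings for RMA were not stated. The table held 10928 probe sets, of which 5498 named 1 S. cerevisiae gene in the platform annotation, and 12 symbols were updated through assembly R64 of S288C, used for names only. For 47 genes with several probe sets, the one with the highest mean was used, which left 5449 genes.

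A linear model with 1 coefficient for each group was fitted to the 6 arrays with limma 3.58.1 (R 4.3.3, moderated by eBayes). It leaves 3 residual degrees of freedom, so the spread is pooled over groups although it was wider for CID 3528206. Tests were two-sided with Benjamini-Hochberg adjustment over all 5449 genes, called at 0.05. The fit was also run on simulated data with the same spread in all groups and few genes changed. The real arrays differ in both, so that run does not test the calls given here. Each ± value is the standard error of a log2 difference between groups of 2 arrays. The number of arrays limits the precision.

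The members and lists were chosen with earlier results of these data known, as were the tests and the 17 alternatives. Values on every array are given for members called with an absolute log2 difference of at least 0.5, those called in opposite directions or between the treatments, and the paralog pairs. Of the other lists, up to 2 called genes per direction and comparison are named. Other members with array values were picked as examples or after their values were seen. EFM7 is not analysed here. No sequences were used, and promoter motifs are not analysed here.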

Additional observations from a re-analysis of the deposited data

How the results depend on the processing

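With 2 arrays a group, leaving out 1 array moved the counts more than scaling did. Doing so also leaves 1 array in a group and fewer residual degrees of freedom, and their part was not tested. Leaving out 1 array in turn gave 8 to 25 called factors for rapamycin (18 with all arrays), 2 to 23 for CID 3528206 (15) and 0 to 12 between the treatments (6). Testing all probe sets together gave 15 for rapamycin, 8 for CID 3528206 and 3 between the treatments. There the fit and the adjustment both ran over 10928 probe sets. The 4 arrays of a comparison alone gave 25, 9 and 3, and the 3' to 5' difference as a covariate gave 26, 14 and 12, and the cause was not tested. Quantile normalization of the tested genes (18, 14 and 7), centring on the median (18, 14 and 6), both filters on low values (18 or 19, 15 or 16, and 6 or 7), the mean of probe sets (18, 15 and 6), probe sets of 1 target (18, 15 and 6, over 34 factors) and the trended robust prior (23, 17 and 8) stayed within 1.5 times. The replicate number as a block gave 20, 15 and 8. It ended no call of a factor and added GCD10 and TIF6 after rapamycin (adjusted p = 0.0205 and 0.0348) and GCN3 and HCR1 between the treatments (0.0363 and 0.0411). The numbers share no stated culture or day, and differences between replicates correlated between groups by 0.248 to 0.431 over all genes. Only GCD2 changed direction with a call, at 0.35 between the treatments without CID 3528206 replicate 1 and -0.46 without CID 3528206 replicate 2. The cause was not tested. Side of the threshold, and direction where called, held in 546, 560 and 579 of 626 recomputed values of single factors for rapamycin, CID 3528206 and their difference. Values called in neither fit counted as held whatever their direction.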
